A study of Mus musculus with 12 samples.

Results

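Mature basophils from bone marrow cultures elicited by thymic stromal lymphopoietin (TSLP) were compared with mature basophils elicited by interleukin-3 (IL-3). The comparison takes 6 of the 12 libraries of the series, 3 TSLP-elicited and 3 IL-3-elicited, chosen by their labels alone and with no measured value. All cells came from wild-type C57BL/6J bone marrow kept for 7 days in 0.3 ng/mL IL-3 or in 1 µg/mL TSLP (the treatment protocol gives µg/mL, a sample label mg/mL). The bone marrow-derived basophils (BMBAs) were then sorted by flow cytometry into immature cells with high FcεRIα and low CD49b (pre-basophils) and mature cells with low FcεRIα and high CD49b. The remaining 6 libraries, of the immature cells from the same 2 kinds of culture, served only to show where mature cells differ. Each library is one of 3 cultures of its group. The sources used here do not say whether the cultures came from different mice, and the p-values therefore measure the spread between these cultures. The study asked whether TSLP-elicited basophils correspond to pre-basophils or to mature basophils.

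Basophils are rare circulating granulocytes that bind IgE, release histamine and proteases from granules, and secrete IL-4, IL-13, IL-6 and chemokines in allergy and in defence against parasites. IL-3 signals through its own α chain (Il3ra) and a β chain shared with IL-5 and GM-CSF, while TSLP, an epithelial cytokine, signals through its own chain (Crlf2) paired with the IL-7 receptor α chain (Il7r). Both receptors use JAK kinases and activate STAT5, so the pathways meet at the same transcription factor and its target genes.

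Reads had been counted per gene by the authors, and the mature libraries held between 2381782 and 3685285 counts. Values below are TMM-normalised CPM (each count scaled to the library's total), listed for replicates 1, 2 and 3 in that order and with n = 3 per group, and fold changes are log2 values of TSLP over IL-3 with their standard errors. A gene was called when its Benjamini-Hochberg adjusted p in edgeR's quasi-likelihood test was below 0.05. The 12 basophil markers examined, among them Mcpt8, Fcer1a and Hdc, had counts in all 6 mature libraries and summed to between 12590 and 15582 CPM in IL-3-elicited and between 10053 and 13938 CPM in TSLP-elicited cells. TSLP mature 1 stood apart. Its 18 B lineage markers, all with a count, summed to 264 CPM against 38.0 and 36.9 CPM in the other TSLP libraries and between 7.29 and 10.8 CPM in the IL-3 libraries. Neutrophil markers summed to 1745 CPM in it, against 775 and 749 CPM in the other TSLP libraries and 1502, 1256 and 1324 CPM in the IL-3 libraries, and monocyte and macrophage markers to 1797 CPM against at most 1212 CPM in the other 5. Its counts differed from those of TSLP mature 2 and 3 with a chi-square per degree of freedom of 40.8 and 51.4, against between 4.14 and 8.31 for the other pairs within a group. List counts and medians are therefore also given without TSLP mature 1, and genes said to have risen or fallen kept their call without it unless stated otherwise. The most abundant markers of the lists that set it apart were Cd79b for the B lineage (70.1 CPM, at most 8.62 CPM in the other 5 mature libraries), Lyz2 for monocytes and macrophages (901 CPM, at most 456 CPM) and H2-Aa for dendritic cells (231 CPM, at most 68.9 CPM). The most abundant markers of the neutrophil and eosinophil lists did not stand out in it, while other members of both lists did. Cxcr2 was at 659.9 CPM against 642 and 631 CPM in the other TSLP libraries and at least 913 CPM in the IL-3 libraries. Alox15 was at 309 CPM against 297 and 304 CPM in the other TSLP libraries. Of the less abundant members, S100a9 was at 283 CPM in TSLP mature 1, against 9.36 and 4.62 CPM in the other TSLP libraries and at most 132 CPM in the IL-3 libraries. Ear2 was at 18.3 CPM against 0.567 and 1.54 CPM in the other TSLP libraries and at most 1.07 CPM in the IL-3 libraries. Ly6g and Siglecf did not stand out. Neutrophil markers other than Cxcr2 were also present in the IL-3 libraries. Retnlg was at 119, 87.8 and 110 CPM in them, against 39.7, 12.5 and 9.23 CPM in the TSLP libraries. Without TSLP mature 1, 10 of 14 tested neutrophil markers were called lower with TSLP and 1 higher (median log2 fold change -2.04). The part of other cells in genes called lower with TSLP was not tested. Cd8a, the highest T and NK cell marker, was at 5.67 CPM in it. No erythroid or stromal marker passed 2.43 CPM in TSLP mature 1, and the highest in the other mature libraries was Hba-a2 at 3.21 CPM in IL-3 mature 1. The defining mast cell markers Kit and Cma1 were at or below 1.78 CPM in all 6 mature libraries and at 0 in 2 and 3 of the TSLP libraries, respectively. The mast cell tryptase gene Tpsb2 was at 5.34 and 2.19 CPM in IL-3 mature 1 and 2 and at 0 in IL-3 mature 3 and all TSLP libraries. Mitf was highest in TSLP mature 1, at 4.05 CPM.

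Of 10861 tested genes, 2634 (24.3%) were called between TSLP- and IL-3-elicited mature basophils, 1345 (12.4%) higher and 1289 (11.9%) lower with TSLP. Among them 680 were at least 2-fold higher and 802 at least 2-fold lower. Without TSLP mature 1, 2945 genes were called, 1136 (10.5%) higher and 1809 (16.7%) lower. With and without that library 916 genes (8.43%) rose and 1238 (11.4%) fell, while 429 of the higher and 51 of the lower calls were lost and none changed sign. The count also rested on IL-3 mature 2, without which 1663 genes were called. The values of the 3 TSLP and the 3 IL-3 libraries did not overlap for 2534 of the 2634 called genes, against 38.6% of all tested genes. The median log2 fold change of all tested genes was 0.09, and 0.02 without TSLP mature 1, and list medians below are read against these values. The counts of a list are read against the 12.4% higher and 11.9% lower of all tested genes, or 10.5% and 16.7% without TSLP mature 1.

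**Figure D1:**
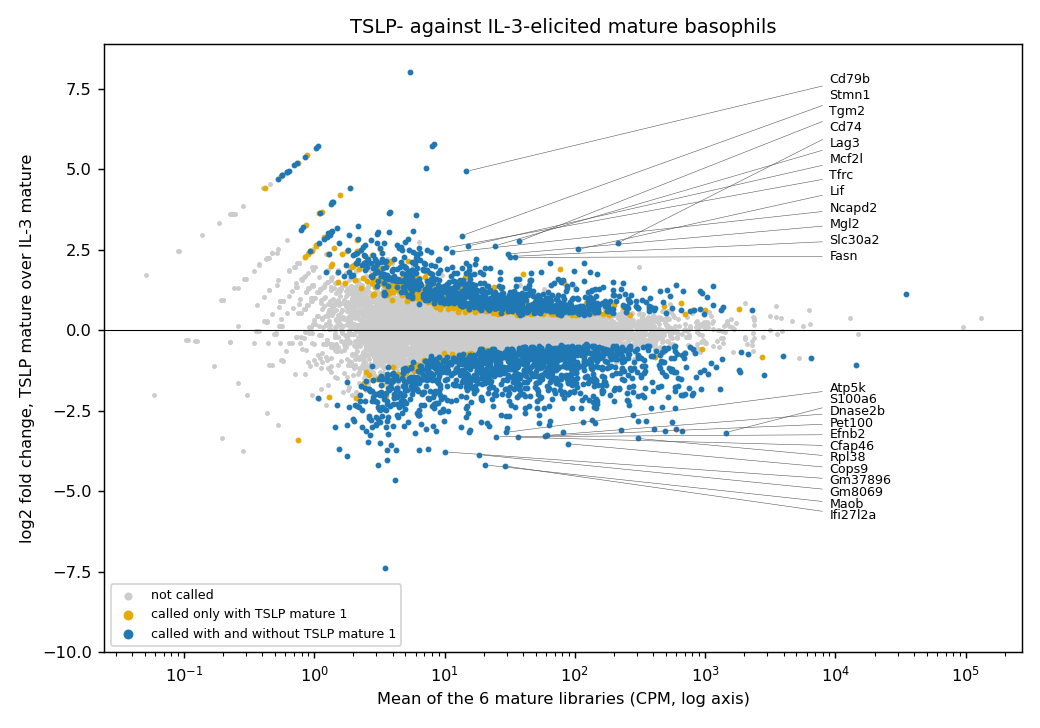
Log2 fold change of TSLP over IL-3 (y axis) against the mean of the 6 mature libraries in CPM (x axis, log scale), 1 point per tested gene. Blue genes were called with and without TSLP mature 1 (916 higher, 1238 lower) and yellow genes only with it (429 higher, 51 lower), and the labelled genes are the 12 with the largest differences in each direction at a mean of at least 10 CPM.

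Fold changes also varied with transcript length. Outside the ribosomal protein and oxidative phosphorylation genes, the median log2 fold change was -1.03 for 133 genes whose longest annotated transcript had at most 500 bases and -0.71 for 186 genes of up to 750 bases. It was -0.10 up to 1000 bases (295 genes) and between 0.06 and 0.24 in all longer classes. Of the shortest class 45.1% were called lower, against 8.43% of genes above 4000 bases. Without TSLP mature 1 the medians of the classes up to 500, 750, 1000 and 1500 bases were -1.51, -1.26, -0.57 and -0.08. They were between 0.04 and 0.12 in the longer classes. In immature cells the medians were -0.63, -0.50 and -0.18 up to 500, 750 and 1000 bases and between 0.02 and 0.08 above. TSLP mature 3 had the lowest values at short transcripts among the TSLP libraries. A fit with a transcript length offset, chosen after seeing the data, removed each library's smooth trend with length and covered 10259 genes, of which 13.4% were called higher and 15.6% lower. What moved the short transcripts was not tested, and the value with the offset is given below for some of the short genes named. In all 4 fits (with and without the offset, with and without TSLP mature 1) 849 genes rose and 1019 fell.

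**Figure D2:**
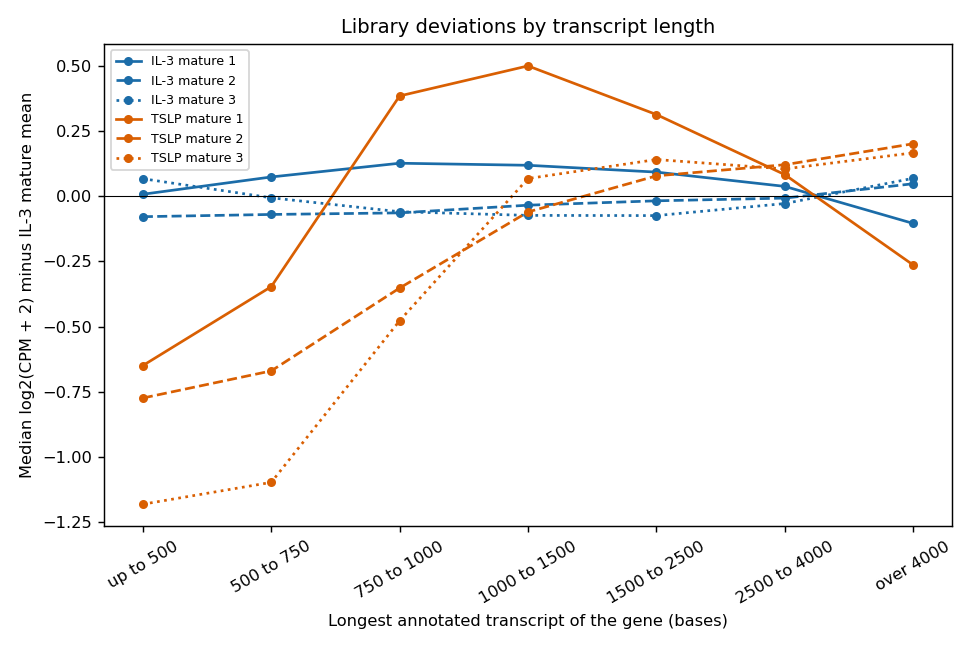
Median deviation of each mature library from the mean of the IL-3 mature libraries, in log2(CPM + 2) (y axis), by class of transcript length in bases (x axis), over genes outside the ribosomal protein and oxidative phosphorylation lists. Lines of TSLP libraries drop in the classes up to 500 and 750 bases, where the median fold change over the groups was -1.03 and -0.71.

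Among the 12 genes with the largest rise at a mean of at least 10 CPM were an enzyme, a surface receptor, a zinc transporter and a cytokine. Tgm2 (chr2:158116402-158146436, minus strand in GRCm38), the protein-crosslinking transglutaminase 2, was at 9.62, 9.47 and 9.47 CPM in the IL-3 and 63.4, 67.8 and 63.7 CPM in the TSLP libraries. Both groups were tight and far apart (log2 fold change 2.77 ± 0.22, edgeR adjusted p = 9.44e-06; 2.70 without TSLP mature 1). Whether counting used strand is not given in the sources used here, so reads from exons on the opposite strand cannot be told apart. This applies to Tgm2 (Gm20412 and Rprd1b) and, among genes named below, to Mcf2l, Pet100, Il3ra, Stat5a, Cish, Pim1, Bcl2, Cdkn1a, Irf7, Irf1, Cx3cr1, Icam1, Pilra, Pilrb1, Pilrb2, Tbxas1, Junb, Jun, Jund, Cebpa, Cebpb, Cebpd, Bhlhe40, Aldoa, Tpi1, Hmgcs1, Shmt2, Aars, Hsp90b1, E2f7, Rps2, Ndufa3, H2-DMa, Ciita, Psmb8, Tapbp, Tmem176a, Cd9, Lig1, Tmpo, Kbtbd11 and Nek6. More than 10% of the 50-base stretches of Rpl3, Rpl23, Rps2, Phgdh, Fdps, Stat4, Stat5b, Csf2rb2, Ifitm3, Lyz2 and Aars occur in other genes, so that their counts are uncertain. Further such genes are pointed out where they are described. Lag3 (chr6:124904361-124911705, minus strand), an inhibitory receptor that binds MHC class II, was at 8.19, 6.56 and 5.41 CPM in the IL-3 and 45.1, 39.4 and 41.8 CPM in the TSLP libraries (log2 fold change 2.63 ± 0.23, edgeR adjusted p = 9.44e-06). Slc30a2 (chr4:134343181-134354484, plus strand), the vesicular zinc transporter, was at 11.0, 10.2 and 10.8 CPM in the IL-3 and 52.6, 51.9 and 53.2 CPM in the TSLP libraries (log2 fold change 2.29 ± 0.21, edgeR adjusted p = 9.44e-06). In both, all TSLP libraries lay close together and well above the IL-3 libraries. Lif (chr11:4257557-4272514, plus strand), the IL-6 family cytokine leukaemia inhibitory factor, was at 25.6, 32.1 and 37.4 CPM in the IL-3 and 147, 222 and 175 CPM in the TSLP libraries (log2 fold change 2.52 ± 0.22, edgeR adjusted p = 9.44e-06; 2.57 without TSLP mature 1).

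Of the other genes in that group, Mcf2l (chr8:12873806-13020905, plus strand), a guanine nucleotide exchange factor, had a log2 fold change of 2.62 (2.78 without TSLP mature 1). Fasn (chr11:120805846-120824547, minus strand), fatty acid synthase, was at 11.8, 9.84 and 14.4 CPM in the IL-3 and 47.2, 64.7 and 60.6 CPM in the TSLP libraries (log2 fold change 2.26 ± 0.21, edgeR adjusted p = 9.44e-06). Tfrc (chr16:32608920-32632794, plus strand), the transferrin receptor that takes up iron, was at 2.85, 2.91 and 3.16 CPM in the IL-3 and 16.5, 21.0 and 15.7 CPM in the TSLP libraries (log2 fold change 2.56 ± 0.24, edgeR adjusted p = 9.44e-06). Lack of overlap was a condition for these genes. Ncapd2, a condensin subunit, and Stmn1, the microtubule regulator stathmin, had log2 fold changes of 2.43 and 2.94 (2.12 and 2.32 without TSLP mature 1), and 18.9% of the 50-base stretches of Stmn1 occur in other genes. The last 3 of these genes are known from other lineages and were highest in TSLP mature 1. Cd79b (chr11:106311341-106314762, minus strand), a chain of the B cell receptor complex, was at 0.712, 1.46 and 0.451 CPM in the IL-3 and 70.1, 7.09 and 8.62 CPM in the TSLP libraries. Mgl2, a C-type lectin of macrophages and dendritic cells that shares 13.1% of its stretches with other genes, was at 10.3, 9.84 and 9.47 CPM in the IL-3 and 83.6, 42.8 and 27.4 CPM in the TSLP libraries. Cd74, the MHC class II invariant chain, was at 76.2, 48.4 and 45.1 CPM in the IL-3 and 683, 224 and 212 CPM in the TSLP libraries. Their log2 fold changes went from 4.94, 2.37 and 2.72 to 2.98, 1.74 and 1.86 without that library.

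In the opposite direction the genes that fell most belonged to several families. Ifi27l2a (chr12:103442167-103443680, minus strand), a small interferon-inducible mitochondrial protein, was at 59.8, 63.4 and 41.9 CPM in the IL-3 and 5.13, 2.55 and 0.923 CPM in the TSLP libraries (log2 fold change -4.22 ± 0.40, edgeR adjusted p = 1.15e-05; -3.06 with the length offset). Maob (chrX:16709282-16817366, minus strand), monoamine oxidase B, which degrades amines including the histamine metabolite methylhistamine, was at 43.5, 34.2 and 39.2 CPM in the IL-3 and 1.35, 2.27 and 2.77 CPM in the TSLP libraries (log2 fold change -4.18 ± 0.38, edgeR adjusted p = 9.44e-06). Both were low in all TSLP libraries and high in all IL-3 libraries. Dnase2b (chr3:146580985-146615596, minus strand), an acid DNase, was at 84.1, 97.6 and 152 CPM in the IL-3 and 9.44, 16.7 and 8.31 CPM in the TSLP libraries (log2 fold change -3.26 ± 0.29, edgeR adjusted p = 9.44e-06). Efnb2 (chr8:8617434-8661242, minus strand), the ligand ephrin-B2, was at 33.8, 48.4 and 54.1 CPM in the IL-3 and 1.89, 3.40 and 8.62 CPM in the TSLP libraries (log2 fold change -3.31 ± 0.37, edgeR adjusted p = 6.22e-05). Cfap46, a cilium and flagellum protein, and the long noncoding RNA Gm37896 had log2 fold changes of -3.32 and -3.78. S100a6 (chr3:90612882-90624181, plus strand), the calcium-binding protein calcyclin, was the most abundant of the 12, at 2463, 2401 and 2927 CPM in the IL-3 and 407, 333 and 121 CPM in the TSLP libraries. Its log2 fold change was -3.18 ± 0.42 (edgeR adjusted p = 0.000219; -2.60 with the offset), and among the TSLP libraries TSLP mature 3 was lowest.

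Of the last 5 of these 12, all but Pet100 have a longest annotated transcript of under 750 bases. Cops9, a small subunit of the COP9 signalosome, had a log2 fold change of -3.52 (-2.77 with the length offset), and Pet100, an assembly factor of cytochrome c oxidase, of -3.28 (-3.38). For the ribosomal protein gene Rpl38 it was -3.36 (-2.20) and for the ATP synthase subunit gene Atp5k -3.17 (-1.99). Rpl38 shares 27.4% of its 50-base stretches with other genes. Gm8069, a pseudogene that shares 49.5% with Tomm5, had a log2 fold change of -3.86 (-3.98 with the offset), and its reads cannot be told apart from those of Tomm5 where they match both. All were lowest in TSLP mature 3 among the TSLP libraries.

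**Figure D3:**
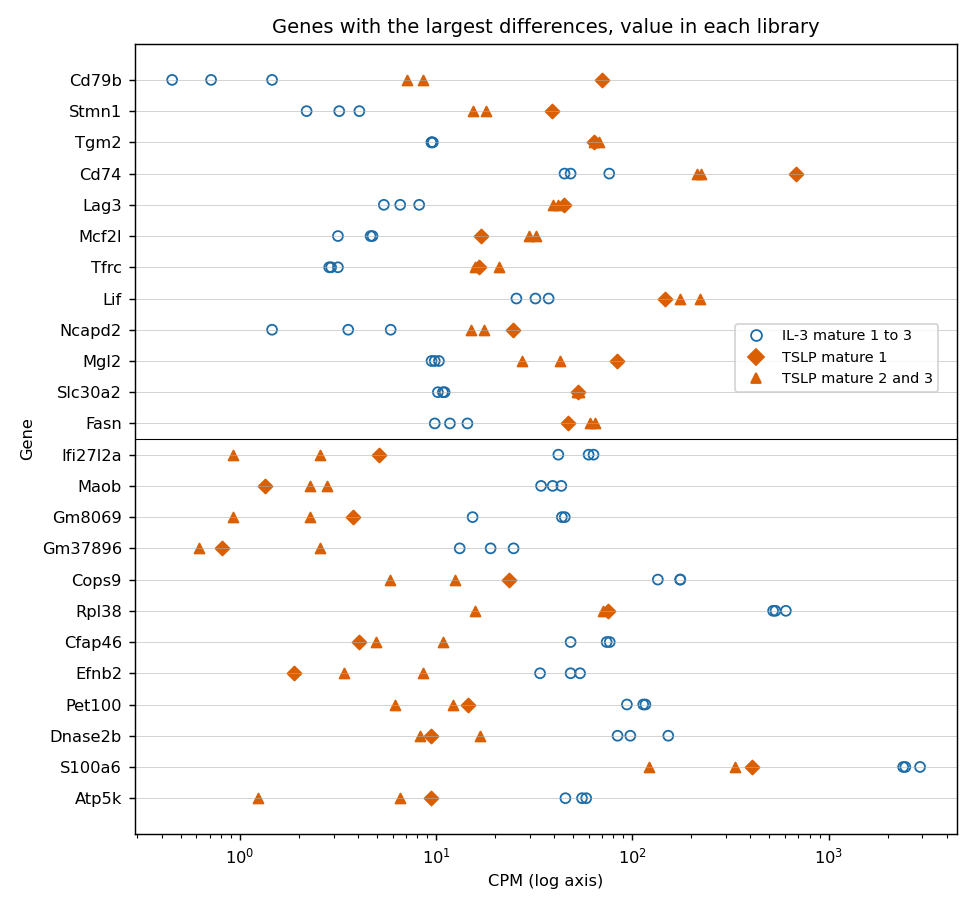
CPM in each mature library (x axis, log scale) for the 12 genes that rose most and the 12 that fell most (y axis), with TSLP mature 1 drawn apart from TSLP mature 2 and 3. Genes were chosen among those that do not overlap between the groups, and in Cd79b and Cd74 TSLP mature 1 lies furthest above the other TSLP libraries.

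The cytokine receptors came next. Of the 22 tested receptor chains, JAKs and STATs, 2 rose and 4 fell (1 higher and 4 lower without TSLP mature 1, of which 1 and 4 in both fits), with a median log2 fold change of 0.12 (0.06 without it). Il3ra (chr14:14346275-14356011, plus strand), the IL-3 binding chain, was at 183, 178 and 185 CPM in the IL-3 and 83.6, 61.6 and 57.8 CPM in the TSLP libraries (log2 fold change -1.42 ± 0.25, edgeR adjusted p = 0.00117; -1.69 without TSLP mature 1). Il7r (chr15:9505788-9530176, minus strand), the chain of the TSLP receptor shared with IL-7, was at 263, 259 and 232 CPM in the IL-3 and 82.6, 94.2 and 76.6 CPM in the TSLP libraries (log2 fold change -1.57 ± 0.20, edgeR adjusted p = 0.000138; -1.64). Both fell in TSLP-elicited cells without overlap. Il2rg, the common γ chain of the IL-7 and IL-4 receptors, also fell (log2 fold change -0.62), and so did Stat4 (-0.59). Il2rg shares 27.5% of its stretches with other genes. Crlf2, the TSLP binding chain, was at 93.0, 75.8 and 71.3 CPM in the IL-3 and 113, 70.1 and 109 CPM in the TSLP libraries and was not called (log2 fold change 0.28 ± 0.20, edgeR adjusted p = 0.325). The shared β chain genes Csf2rb and Csf2rb2 were not called either (12.3% of the stretches of Csf2rb occur in other genes; log2 fold changes 0.21 ± 0.19 and 0.22 ± 0.19). Stat5a, which shares 8.21% of its stretches with Stat5b, was at 43.5, 45.5 and 51.0 CPM in the IL-3 and 87.1, 68.9 and 84.0 CPM in the TSLP libraries and rose (log2 fold change 0.78 ± 0.17, edgeR adjusted p = 0.00545), while Stat5b had a log2 fold change of 0.28 ± 0.18 and was not called.

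STAT5 target and feedback genes split in mature cells. Of 19 tested, 5 rose and 4 fell, the same genes with and without TSLP mature 1, with a median of 0.29 (0.22 without it). Beside Lif, 4 genes rose. Pim2, a survival kinase, was at 37.8, 35.7 and 36.5 CPM in the IL-3 and 111, 99.3 and 93.5 CPM in the TSLP libraries (log2 fold change 1.46 ± 0.17, edgeR adjusted p = 7.17e-05). Cish, a negative regulator of cytokine receptors, was at 101, 92.2 and 81.6 CPM in the IL-3 and 233, 238 and 235 CPM in the TSLP libraries (log2 fold change 1.36 ± 0.21, edgeR adjusted p = 0.000509). Myc, a growth regulator, and Bcl2, an inhibitor of apoptosis, rose by 1.79 and 0.77 on the log2 scale. Socs3, a suppressor of cytokine signalling, fell, at 258, 248 and 281 CPM in the IL-3 and 147, 161 and 163 CPM in the TSLP libraries (log2 fold change -0.74 ± 0.16, edgeR adjusted p = 0.00428). Socs2 of the same family, the kinase gene Pim1 and the cell cycle inhibitor gene Cdkn1a fell by 1.62, 0.72 and 1.17 on the log2 scale. The same list behaved otherwise in immature cells, where 11 of the 19 were called higher and 0 lower with TSLP, against 7.38% of all tested genes called higher and 5.90% lower there (13.3% in all). That background count was 688, 754 and 594 genes without IL-3 immature 1, IL-3 immature 2 and TSLP immature 3 and 2225 without TSLP mature 1, against 1443 with all libraries. In Socs3 the window before the transcription start holds a match to the STAT-type motif TTCNNNGAA (both strands searched), printed because Socs3 reversed between stages as described below. The match begins 154 bases before the RefSeq start, and the GENCODE annotation used for gene positions places the gene at chr11:117966079-117970047, minus strand, so that the stretch lies inside the gene there. The stretch below is chr11:117969487-117969545, minus strand, of GRCm38.p6 in RefSeq, written 5′ to 3′ in the direction of the gene with the match in capitals.
Socs3: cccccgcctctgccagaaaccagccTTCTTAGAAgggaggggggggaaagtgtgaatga
Of 8256 tested genes with a RefSeq promoter window, 592 (7.17%) held this motif in the 250 bases before the start, and Socs3 was the only carrier among 15 STAT5 list genes with a window. A match is a description of the letters and not a binding site.

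More interferon-stimulated genes fell than rose in TSLP-elicited mature cells. Of 41 tested, 15 fell and 1 rose (1 higher and 21 lower without TSLP mature 1, of which 1 and 15 in both fits), against 11.9% lower and 12.4% higher over all genes. The median log2 fold change was -0.54 (-0.91 without TSLP mature 1, -0.64 with the length offset and -0.29 without IL-3 mature 1). As a deviation from the IL-3 mature mean, in log2(CPM + 2), the list's median was -0.35, -0.63 and -0.67 in TSLP mature 1, 2 and 3. Rsad2 (viperin), an antiviral enzyme, was at 25.3, 27.3 and 23.5 CPM in the IL-3 and 1.08, 7.66 and 3.08 CPM in the TSLP libraries (log2 fold change -2.68 ± 0.42, edgeR adjusted p = 0.000626). Cmpk2, the nucleotide kinase encoded beside it, was at 25.3, 27.7 and 26.2 CPM in the IL-3 and 5.13, 5.39 and 6.15 CPM in the TSLP libraries (log2 fold change -2.24 ± 0.34, edgeR adjusted p = 0.000551). The groups were apart for both, and Rsad2 spread widely among the TSLP libraries. Xaf1, a proapoptotic protein, was at 30.6, 27.7 and 37.0 CPM in the IL-3 and 9.17, 5.39 and 6.46 CPM in the TSLP libraries (log2 fold change -2.16 ± 0.30, edgeR adjusted p = 0.000283). Isg15, a ubiquitin-like modifier, was at 25.3, 25.1 and 19.8 CPM in the IL-3 and 11.1, 9.08 and 4.62 CPM in the TSLP libraries (log2 fold change -1.49 ± 0.33, edgeR adjusted p = 0.00519; -0.95 with the length offset). Ifit3, an RNA-binding antiviral protein that shares 51.2% of its stretches with Ifit3b, was at 7.12, 5.10 and 7.67 CPM in the IL-3 and 0.540, 0.567 and 0.923 CPM in the TSLP libraries (log2 fold change -3.22 ± 0.48, edgeR adjusted p = 0.000445). Ifitm1 and Ifitm3, short membrane proteins that block virus entry, fell by 1.38 and 1.64 on the log2 scale (-1.14 and -0.97 with the offset). Irf7, the transcription factor that amplifies type I interferon, was at 39.2, 45.2 and 24.8 CPM in the IL-3 and 26.2, 11.9 and 13.5 CPM in the TSLP libraries (log2 fold change -1.08 ± 0.28, edgeR adjusted p = 0.0126), with TSLP mature 1 above the lowest IL-3 library. The member that rose was Irf1, also an NF-kB target (log2 fold change 0.87 ± 0.22, edgeR adjusted p = 0.00988). Stat2, a transcription factor of the interferon response, was not called (log2 fold change -0.22 ± 0.21). In immature cells the list's median was -0.13, with 4 called lower and 4 higher. The difference between the stages, tested as described below, was called negative for 2 of the 41 genes and positive for 0. Over all tested genes 2.15% were negative and 2.04% positive.

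The promoters of 5 of the genes that fell hold the letters GAAANNGAAA, the core of an interferon-stimulated response element, which STAT2 and IRF proteins bind. The stretches below run 5′ to 3′ in the direction of the gene with the matches on either strand in capitals, from RefSeq on GRCm38.p6. The stretch of Isg15 is chr4:156200850-156200921, minus strand, that of Ifit1 is at chr19:34640760-34640838, plus strand, Rsad2 at chr12:26456538-26456597, minus strand, Ifit3 at chr19:34583348-34583441, plus strand and Oas3, an oligoadenylate synthetase, at chr5:120777700-120777759, minus strand.
Isg15: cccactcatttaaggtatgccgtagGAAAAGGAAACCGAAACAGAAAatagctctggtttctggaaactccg
Ifit1: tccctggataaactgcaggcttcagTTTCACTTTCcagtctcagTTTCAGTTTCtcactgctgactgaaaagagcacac
Rsad2: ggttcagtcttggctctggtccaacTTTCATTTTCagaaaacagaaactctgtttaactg
Ifit3: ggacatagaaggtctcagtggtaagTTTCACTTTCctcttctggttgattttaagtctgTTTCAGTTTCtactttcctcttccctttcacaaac
Oas3: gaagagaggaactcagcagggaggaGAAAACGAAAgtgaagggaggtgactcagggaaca
The first match began 78 bases before the start in Isg15, which holds 3 overlapping matches, and 104, 120, 156 and 75 bases before it in Ifit1, Rsad2, Ifit3 and Oas3. Over all tested genes with a window, 288 of 8256 (3.49%) held the letters in the 250 bases before the start, against 42 of 921 genes called lower (4.56%) and 37 of 1061 called higher (3.49%). Among interferon-stimulated genes with a window, 5 of 13 called lower, 7 of 16 not called and 0 of 1 called higher held it.

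Basophil granule and IgE receptor genes changed modestly. Of 7 tested granule protease genes (of 18 listed), 3 fell and 1 rose (0 higher and 3 lower without TSLP mature 1, of which 0 and 3 in both fits), with a median of -0.02 (-0.27 without it). Cpa3, carboxypeptidase A3, was at 1844, 1322 and 1314 CPM in the IL-3 and 863, 699.9 and 656 CPM in the TSLP libraries (log2 fold change -1.01 ± 0.19, edgeR adjusted p = 0.00201). Mcpt8, the basophil serine protease, was at 5775, 4686 and 4510.3 CPM in the IL-3 and 4236, 2166 and 2290.4 CPM in the TSLP libraries (log2 fold change -0.78 ± 0.24, edgeR adjusted p = 0.0257; -1.25 without TSLP mature 1). With the length offset its call ended (-0.40, edgeR adjusted p = 0.0513; 0.116 with the offset and TSLP mature 1 left out), and 2 of the proteases fell in all 4 fits. Cpa3 did not overlap between the groups, and in Mcpt8 TSLP mature 1 lay near the IL-3 libraries. Ctsg, cathepsin G of granulocyte granules, fell by 0.75 on the log2 scale. Prss34, a basophil tryptase-like protease, was at 918, 762 and 684 CPM in the IL-3 and 1499, 961 and 1173 CPM in the TSLP libraries, and its rise (log2 fold change 0.62 ± 0.21, edgeR adjusted p = 0.0413) was not called without TSLP mature 1 (0.35, edgeR adjusted p = 0.141).

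The IgE receptor chains themselves were not called. Fcer1a, the IgE-binding chain used in the sort, was at 1267, 937 and 865 CPM in the IL-3 and 1779, 871 and 1141 CPM in the TSLP libraries (log2 fold change 0.30 ± 0.24, edgeR adjusted p = 0.376; 0.41 with the length offset). Itga2, which encodes the sort marker CD49b, was at 192, 239.7 and 309 CPM in the IL-3 and 96.9, 209 and 199 CPM in the TSLP libraries (log2 fold change -0.55 ± 0.25, edgeR adjusted p = 0.117). Both overlapped between the groups, and Itga2 was called lower with the length offset (-0.61, edgeR adjusted p = 0.00695). Among 24 receptor and proximal kinase genes 4 rose and 2 fell (4 higher and 7 lower without TSLP mature 1, of which 3 and 2 in both fits). The list's median went from 0.08 to -0.01 without that library. The kinase gene Syk, whose product binds the receptor's γ chain, rose by 0.73 on the log2 scale, as did the phosphoinositide 3-kinase subunit gene Pik3cd (0.53). Fyn, a Src family kinase, and Cd84, a SLAM family receptor, fell by 0.46 and 0.49. Syk was at 110.4, 95.1 and 101 CPM in the IL-3 and 158, 172 and 179.7 CPM in the TSLP libraries (log2 fold change 0.73 ± 0.18, edgeR adjusted p = 0.00784), with no overlap. Other sorting and identity genes, Cd200r3 (0.01 ± 0.17) and Cd9 (0.24 ± 0.21), were not called, and Clec12a was called lower only without TSLP mature 1 (-0.24 with it, -1.82 without). Clec12a was low and overlapped between the groups, at 10.7, 5.83 and 2.25 CPM in the IL-3 and 12.1, 2.27 and 1.54 CPM in the TSLP libraries. Its value without TSLP mature 1 rests on 8 and 5 counts in TSLP mature 2 and 3.

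Called effector cytokine and chemokine genes were few, at shares near or above the background of all genes. Of 11 tested cytokine genes, 2 rose and 2 fell (1 higher and 2 lower without TSLP mature 1, of which 1 and 2 in both fits; median 0.11, and 0.27 without it). Of 6 chemokine ligand genes 1 rose and 1 fell (1 higher and 2 lower without TSLP mature 1, of which 1 and 1 in both fits; median 0.06, and -0.23 without it). Il13, a type 2 cytokine, was at 8.19, 9.11 and 10.4 CPM in the IL-3 and 3.51, 2.55 and 2.15 CPM in the TSLP libraries (log2 fold change -1.72 ± 0.35, edgeR adjusted p = 0.00328). Csf1, the macrophage growth factor M-CSF, was at 671, 674 and 689 CPM in the IL-3 and 408, 482 and 540.0 CPM in the TSLP libraries (log2 fold change -0.51 ± 0.17, edgeR adjusted p = 0.044). Cxcl2, a neutrophil attractant, was at 27.8, 25.1 and 49.6 CPM in the IL-3 and 11.3, 5.96 and 9.23 CPM in the TSLP libraries (log2 fold change -1.93 ± 0.31, edgeR adjusted p = 0.000781). All 3 were lower in every TSLP library than in any IL-3 library. Il4, the type 2 cytokine that basophils are known for, was at 52.0, 42.3 and 65.4 CPM in the IL-3 and 52.1, 41.1 and 26.2 CPM in the TSLP libraries and was not called (log2 fold change -0.41 ± 0.27, edgeR adjusted p = 0.281). Its sign turned with the length offset, where it was called higher (log2 fold change 0.58, edgeR adjusted p = 0.0216). Il6 was at 436, 333 and 351 CPM in the IL-3 and 648, 428 and 625 CPM in the TSLP libraries, with TSLP mature 2 inside the IL-3 range, and just missed the threshold (log2 fold change 0.60 ± 0.22, edgeR adjusted p = 0.0534). Ccl3, an abundant chemokine of activated basophils, overlapped between the groups (log2 fold change -0.02 ± 0.22, edgeR adjusted p = 0.953), and its sign turned likewise (0.60 with the offset). Ccl2, a monocyte attractant, rose from a low level, at 1.42, 0.729 and 1.35 CPM in the IL-3 and 13.2, 3.97 and 5.23 CPM in the TSLP libraries (log2 fold change 2.65 ± 0.61, edgeR adjusted p = 0.00615; 3.01 with the offset). Vegfa, an angiogenic factor, rose by 1.05 but not without TSLP mature 1 (edgeR adjusted p = 0.0547).

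Among receptors for chemokines and lipid mediators, 3 of 18 rose and 6 fell, all with and without TSLP mature 1, at a median of -0.08 (-0.23 without it). Ccr2, the receptor of Ccl2 that guides cells out of bone marrow, was at 357, 344 and 319 CPM in the IL-3 and 117, 124 and 114 CPM in the TSLP libraries (log2 fold change -1.52 ± 0.16, edgeR adjusted p = 2.62e-05). Cx3cr1, the fractalkine receptor, was at 6.77, 6.56 and 7.22 CPM in the IL-3 and 0.270, 0.567 and 0.308 CPM in the TSLP libraries (log2 fold change -4.02 ± 0.49, edgeR adjusted p = 9.66e-05). Neither overlapped between the groups. Cxcr2, Ccr3, S1pr1 and S1pr4, which bind CXC chemokines, eotaxins and sphingosine-1-phosphate, fell by 0.57, 0.85, 0.60 and 0.56 on the log2 scale. C5ar1, the receptor of the complement fragment C5a, was at 80.5, 84.1 and 72.2 CPM in the IL-3 and 174, 153 and 157 CPM in the TSLP libraries (log2 fold change 1.03 ± 0.20, edgeR adjusted p = 0.00263). Ptger3, a prostaglandin E2 receptor, and Hrh4, the histamine H4 receptor, rose by 0.87 and 0.74.

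Adhesion and pattern recognition genes followed. Of 28 integrin, selectin ligand and adhesion genes 4 rose and 3 fell (4 higher and 6 lower without TSLP mature 1, of which 3 and 3 in both fits), shares near the 12.4% and 11.9% of all tested genes, at a median of 0.21 (0.03 without it). Itgb1, the β1 chain that pairs with CD49b, was at 692, 757 and 766 CPM in the IL-3 and 318, 456 and 448 CPM in the TSLP libraries (log2 fold change -0.86 ± 0.17, edgeR adjusted p = 0.00297). Its partner Itga6 and the selectin ligand gene Selplg fell by 0.88 and 0.52 on the log2 scale. Itga2b (CD41) rose by 0.64, its partner Itgb3 by 0.56 and Icam1 by 1.31. Of 25 paired receptors, 6 rose and 2 fell (6 higher and 5 lower without TSLP mature 1, of which 6 and 2 in both fits), and the median turned from 0.37 to -0.07 without that library. The activating receptor Pilrb1 was at 21.0, 22.6 and 25.7 CPM in the IL-3 and 84.2, 51.1 and 69.2 CPM in the TSLP libraries (log2 fold change 1.56 ± 0.20, edgeR adjusted p = 0.000158). Its relatives Pilrb2 and Pilra rose by 1.42 and 1.53, although Pilrb1 and Pilrb2 share 30.1% and 29.2% of their stretches with other genes. Clec4e (Mincle), a receptor for mycobacterial glycolipids, was at 172, 135 and 129 CPM in the IL-3 and 45.9, 38.3 and 49.8 CPM in the TSLP libraries (log2 fold change -1.70 ± 0.21, edgeR adjusted p = 9.66e-05). Its neighbour Clec4d fell by 1.53. The IL-18 receptor gene Il18r1 fell (log2 fold change -0.61 ± 0.18, edgeR adjusted p = 0.0203). The IL-33 receptor gene Il1rl1, at 965, 1122 and 1321 CPM in the IL-3 and 550.4, 828 and 899 CPM in the TSLP libraries, lost its call without TSLP mature 1 (log2 fold change -0.58 with it and -0.48 without, edgeR adjusted p = 0.0553 without). These were the only 2 of 15 alarmin and Toll-like receptor genes called with all libraries (1 higher and 3 lower without TSLP mature 1, of which 0 and 1 in both fits; median -0.00, and -0.05 without it).

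In mediator metabolism, 3 of 16 genes rose and 2 fell (3 higher and 3 lower without TSLP mature 1, of which 3 and 2 in both fits), and the median turned from 0.17 to -0.09 without that library. Hdc, which makes histamine, was at 926, 836 and 996 CPM in the IL-3 and 1038, 1073 and 1066 CPM in the TSLP libraries and was not called (log2 fold change 0.20 ± 0.17, edgeR adjusted p = 0.415), in contrast to the degrading enzyme gene Maob described above. On the leukotriene side, Alox5 (5-lipoxygenase) was at 309.9, 282 and 282 CPM in the IL-3 and 462, 491 and 492 CPM in the TSLP libraries (log2 fold change 0.73 ± 0.17, edgeR adjusted p = 0.00655) and Lta4h, which forms leukotriene B4, at 58.4, 59.4 and 49.6 CPM in the IL-3 and 104, 86.2 and 94.5 CPM in the TSLP libraries (log2 fold change 0.76 ± 0.16, edgeR adjusted p = 0.00418). Tbxas1, thromboxane synthase, rose by 1.03, and Mgst2, a leukotriene C4 synthase relative, fell by 2.27 (-1.40 with the length offset).

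Of 37 immediate early and NF-kB genes, 12 rose and 2 fell (14 higher and 3 lower without TSLP mature 1, of which 11 and 2 in both fits), with a median of 0.44 (0.50 without TSLP mature 1 and 0.19 without TSLP mature 3). Against the IL-3 mature mean, in log2(CPM + 2), the list's median was -0.07, 0.46 and 0.52 in TSLP mature 1, 2 and 3, so that TSLP mature 1 was not higher. Junb, an AP-1 subunit, was at 590.2, 531 and 519 CPM in the IL-3 and 1012, 1274 and 1553 CPM in the TSLP libraries (log2 fold change 1.23 ± 0.23, edgeR adjusted p = 0.00212). Ier2, an immediate early gene, was at 672, 632 and 589.9 CPM in the IL-3 and 1546, 1565 and 1860.0 CPM in the TSLP libraries (log2 fold change 1.39 ± 0.21, edgeR adjusted p = 0.000509). Jun, Jund and Fos of the same complex rose by 1.27, 0.70 and 0.92 on the log2 scale, with TSLP mature 1 the lowest TSLP library for Jun and Fos. The NF-kB subunit genes Nfkb1 and Rela rose by 0.73 and 0.68, while Nfkbia, the inhibitor IκBα, and Ier3, an apoptosis regulator, fell (log2 fold change -0.67 ± 0.17, edgeR adjusted p = 0.0106 and log2 fold change -1.24 ± 0.22, edgeR adjusted p = 0.00123). Egr1 overlapped between the groups (log2 fold change 0.02 ± 0.23). In immature cells 18 of the 37 genes were called higher with TSLP and 0 lower, at a median of 0.75. The difference between the stages, tested as described below, was called negative for 3 of them and positive for 0.

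Among transcription factors of the basophil and neighbouring lineages, 6 of 42 rose and 3 fell (5 higher and 5 lower without TSLP mature 1, of which 5 and 3 in both fits), shares near or below the 12.4% and 11.9% of all tested genes. The median turned from 0.03 to -0.08 without that library. Ikzf3 (Aiolos) was at 116, 106 and 137 CPM in the IL-3 and 46.1, 47.4 and 40.3 CPM in the TSLP libraries (log2 fold change -1.42 ± 0.18, edgeR adjusted p = 0.000138). Erg and Runx3, factors of blood stem cells and lymphocytes, fell by 1.52 and 0.90 on the log2 scale. Cebpb and Cebpd, factors of myeloid differentiation, and Bhlhe40 rose by 0.75, 0.78 and 0.66. Gata2, required for basophil development, was at 1235, 1128 and 1052 CPM in the IL-3 and 1131, 1191 and 1199 CPM in the TSLP libraries and Cebpa at 329.8, 273 and 347 CPM in the IL-3 and 441, 391 and 381 CPM in the TSLP libraries. Neither was called (log2 fold changes 0.04 ± 0.18 and 0.35 ± 0.20). Of 26 BCL-2 and TNF superfamily genes, 5 rose and 4 fell (4 higher and 7 lower without TSLP mature 1, of which 4 and 4 in both fits; median 0.05, and 0.02 without it). The TNF receptor Tnfrsf1b was at 41.3, 56.1 and 45.1 CPM in the IL-3 and 94.7, 105 and 106 CPM in the TSLP libraries (log2 fold change 1.10 ± 0.18, edgeR adjusted p = 0.000877). The death receptor Fas was at 31.0, 22.6 and 25.3 CPM in the IL-3 and 8.36, 5.67 and 9.85 CPM in the TSLP libraries (log2 fold change -1.72 ± 0.38, edgeR adjusted p = 0.00486). Cflar, an inhibitor of death receptor signalling, fell by 0.78.

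Metabolic genes rose in several pathways. In glycolysis 11 of 24 genes rose and 2 fell (11 higher and 2 lower without TSLP mature 1, of which 11 and 1 in both fits), and the median was 0.53 (0.51 without that library, 0.47 with the length offset). Pfkl, a rate-controlling phosphofructokinase, was at 36.7, 43.3 and 43.3 CPM in the IL-3 and 129, 110.4 and 107 CPM in the TSLP libraries (log2 fold change 1.49 ± 0.17, edgeR adjusted p = 6.68e-05). Aldoa, aldolase A, was at 651, 579.6 and 522 CPM in the IL-3 and 1569.7, 1067 and 1302 CPM in the TSLP libraries (log2 fold change 1.17 ± 0.19, edgeR adjusted p = 0.000934). Both were separate in every library, as were Pgk1, Pgam1, Tpi1 and Ldha, whose log2 fold changes were 1.09, 1.10, 1.10 and 0.89. Pgk1 and Pgam1 share 53.9% and 36.2% of their stretches with other genes. The regulator Pfkfb4 fell by 1.62. Of 22 cholesterol synthesis genes, 9 rose and 0 fell (8 higher and 0 lower without TSLP mature 1, of which 7 and 0 in both fits), with a median of 0.70 (0.69 without it). Fdps, farnesyl diphosphate synthase, was at 11.8, 10.2 and 9.92 CPM in the IL-3 and 32.6, 19.9 and 20.0 CPM in the TSLP libraries (log2 fold change 1.18 ± 0.23, edgeR adjusted p = 0.0024). Hmgcs1, an early enzyme of the pathway, was not called (0.04 ± 0.20).

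Amino acid genes under the stress factor ATF4 gave 9 higher and 3 lower of 23 (8 higher and 4 lower without TSLP mature 1, of which 8 and 3 in both fits), with a median of 0.57 (0.28 without it). Slc7a5, the large neutral amino acid transporter, was at 55.2, 61.9 and 86.6 CPM in the IL-3 and 175, 258 and 257 CPM in the TSLP libraries (log2 fold change 1.76 ± 0.23, edgeR adjusted p = 0.000198). Its partner Slc3a2 rose by 0.76. The serine and one-carbon enzyme genes Phgdh, Psat1, Shmt2 and Mthfd2 rose by 2.57, 2.06, 2.40 and 2.90 from at most 2.49 CPM in the IL-3 libraries. Ddit4, an inhibitor of mTORC1 signalling, fell, at 236, 313 and 341 CPM in the IL-3 and 132, 115 and 104 CPM in the TSLP libraries (log2 fold change -1.34 ± 0.22, edgeR adjusted p = 0.000977). The cystine transporter gene Slc7a11 fell by 1.37. Atf4 itself was not called (0.42 ± 0.22). Of 32 endoplasmic reticulum genes, 5 rose and 5 fell (4 higher and 9 lower without TSLP mature 1, of which 2 and 5 in both fits; median 0.07, and 0.01 without it), among them the disulfide isomerase gene P4hb (log2 fold change 0.97 ± 0.17, edgeR adjusted p = 0.00137) and the chaperone gene Hsp90b1 (log2 fold change -0.72 ± 0.18, edgeR adjusted p = 0.0114). Of 43 lysosome genes, 8 rose and 3 fell (8 higher and 9 lower without TSLP mature 1, of which 7 and 3 in both fits), and the median turned from 0.17 to -0.05 without that library. The cholesterol carrier gene Npc2 was among those that fell (log2 fold change -1.35 ± 0.29, edgeR adjusted p = 0.00437).

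Proliferation genes rose from a low level. Of 60 tested, 36 rose and 2 fell (25 higher and 3 lower without TSLP mature 1, of which 25 and 2 in both fits), and the median was 1.47 (1.06 without it, 1.43 with the length offset). In log2(CPM + 2) the list's median deviated from the IL-3 mature mean by 1.02, 0.65 and 0.55 in TSLP mature 1, 2 and 3. Mki67, the proliferation marker Ki-67, was at 8.19, 9.47 and 6.76 CPM in the IL-3 and 16.2, 31.2 and 20.3 CPM in the TSLP libraries (log2 fold change 1.46 ± 0.26, edgeR adjusted p = 0.00131). Top2a, topoisomerase IIα of dividing cells, was at 6.06, 7.29 and 6.31 CPM in the IL-3 and 21.3, 18.7 and 17.2 CPM in the TSLP libraries (log2 fold change 1.54 ± 0.20, edgeR adjusted p = 0.000206). Pcna, the replication clamp, was at 51.3, 53.2 and 40.6 CPM in the IL-3 and 144, 97.3 and 139 CPM in the TSLP libraries (log2 fold change 1.38 ± 0.19, edgeR adjusted p = 0.00024), and 19.1% of its stretches occur in other genes. None of these overlapped between the groups, and TSLP mature 1 was not the highest for Mki67. For comparison, Mki67 was at 600.1, 665 and 732 CPM in IL-3-elicited and 404, 452 and 426 CPM in TSLP-elicited immature cells, so that TSLP-elicited mature cells were below either immature group in every library. Bub1, Pbk, Pimreg and E2f7, mitotic and cell cycle genes chosen for naming after their values were seen, had no count in any IL-3 mature library and were at least 5.44-, 4.45-, 3.71- and 3.95-fold higher with TSLP against a floor of 3 counts over the group. Kif23, a kinesin of cell division, fell (log2 fold change -1.28 ± 0.22, edgeR adjusted p = 0.0011), as did E2f2. Whether more cells in division or more of these transcripts per cell underlie a level cannot be told apart in bulk libraries.

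Many ribosomal protein and oxidative phosphorylation genes fell, and their transcripts are short. Of 82 ribosomal protein genes, 53 fell and 4 rose (2 higher and 70 lower without TSLP mature 1, of which 2 and 53 in both fits), with a median of -1.59 (-2.08 without it) and a median transcript length of 910 bases. With the length offset 54 were called lower and 7 higher at a median of -1.16, and in all 4 fits 50 fell and 2 rose. Against the IL-3 mature mean, in log2(CPM + 2), the median member deviated by -1.02, -1.41 and -2.82 in TSLP mature 1, 2 and 3. Rpl23 was at 988, 978 and 948 CPM in the IL-3 and 199, 155 and 50.8 CPM in the TSLP libraries (log2 fold change -2.85 ± 0.49, edgeR adjusted p = 0.00116; -2.87 with the length offset), while Rpl3 rose, at 151, 109 and 109 CPM in the IL-3 and 434, 273 and 326 CPM in the TSLP libraries (log2 fold change 1.48 ± 0.21, edgeR adjusted p = 0.000346), as did Rps2. Of 77 nuclear genes of the respiratory chain and ATP synthase, 34 fell and 8 rose (3 higher and 48 lower without TSLP mature 1, of which 3 and 34 in both fits; 25 fell and 3 rose in all 4 fits), at a median of -0.71 (-1.33 without TSLP mature 1, -0.30 with the offset) and a median length of 918 bases. The median member deviated by -0.01, -0.77 and -1.43 in TSLP mature 1, 2 and 3, so that TSLP mature 1 was at the level of the IL-3 libraries. Cox6b1, a cytochrome c oxidase subunit, was at 163, 125 and 141 CPM in the IL-3 and 56.7, 36.6 and 14.8 CPM in the TSLP libraries (log2 fold change -1.98 ± 0.36, edgeR adjusted p = 0.00151; -1.12 with the offset). Ndufa3, a complex I subunit, was at 145, 149 and 145 CPM in the IL-3 and 24.0, 18.2 and 6.46 CPM in the TSLP libraries (log2 fold change -3.16 ± 0.55, edgeR adjusted p = 0.00123; -2.05 with the offset). Atp5b, the catalytic subunit gene of ATP synthase, rose (log2 fold change 0.91 ± 0.18, edgeR adjusted p = 0.00258). TSLP mature 3 was the lowest library for Rpl23, Cox6b1 and Ndufa3. Both lists were also lower with TSLP in immature cells. There 21 of the 82 ribosomal protein genes were called lower and 0 higher (median -0.95). Of the 77 oxidative phosphorylation genes, 18 were called lower and 0 higher there (median -0.72). Over all tested genes 5.90% were called lower and 7.38% higher in immature cells. The ribosomal RNA row Rn45s took 10.2%, 10.1% and 12.3% of counts in the IL-3 and 8.68%, 15.8% and 17.4% in the TSLP libraries, a difference of means of 3.09 percentage points (SD 1.24 and 4.65, n = 3) that did not exceed the spread (exact two-sided permutation p = 0.4, where 3 against 3 libraries cannot go below 0.1). Without TSLP mature 1 the difference was 5.74 percentage points, and both remaining TSLP libraries lay above every IL-3 library. The rows Rn18s and Rn28s1 together held about as many counts as Rn45s. All 3 rows took 20.4%, 20.2% and 24.5% of counts in the IL-3 and 17.3%, 31.5% and 34.7% in the TSLP libraries.

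MHC class II genes were higher in TSLP-elicited cells, and so were markers of other lineages in TSLP mature 1. Of 20 antigen presentation genes, 10 rose and 2 fell (7 higher and 3 lower without TSLP mature 1, of which 7 and 2 in both fits), with a median of 0.67 (0.37 without it). H2-DMa, a peptide exchange chaperone, was at 4.99, 6.19 and 7.67 CPM in the IL-3 and 48.6, 18.7 and 19.4 CPM in the TSLP libraries (log2 fold change 2.21 ± 0.38, edgeR adjusted p = 0.00119; 1.53 without TSLP mature 1). H2-Ob of the same pathway and the class II transactivator Ciita rose by 1.17 and 1.89. H2-Aa was at 44.9, 33.5 and 17.6 CPM in the IL-3 and 231, 68.9 and 64.9 CPM in the TSLP libraries, H2-Ab1 at 60.6, 40.8 and 29.3 CPM in the IL-3 and 222, 71.5 and 69.5 CPM in the TSLP libraries and H2-Eb1 at 24.9, 13.1 and 17.1 CPM in the IL-3 and 121, 32.9 and 32.0 CPM in the TSLP libraries. These class II chains were highest in TSLP mature 1, and without it their adjusted p in edgeR was 0.0605, 0.057 and 0.0667. The B lineage marker sum moved with them and stayed higher in TSLP mature 2 and 3, at 38.0 and 36.9 CPM, than in any IL-3 library, at most 10.8 CPM. Dendritic cell markers, which include H2-Aa and H2-Ab1, summed to 598, 229 and 201 CPM in the TSLP and 263, 173 and 153 CPM in the IL-3 libraries. The part of other cells in the class II values was not tested. The immunoproteasome gene Psmb8 and the peptide loading gene Tapbp fell by 1.28 and 0.59.

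The 480 calls lost without TSLP mature 1 were 429 higher and 51 lower. The largest of them at a mean of at least 10 CPM were the class II genes H2-Aa, H2-Eb1 and H2-Ab1, the microsomal glutathione transferase gene Mgst1 and the ion channel gene Tmem176a. Mgst1 was at 12.5, 4.74 and 3.16 CPM in the IL-3 and 43.2, 14.5 and 8.31 CPM in the TSLP libraries and Tmem176a at 19.6, 12.4 and 8.57 CPM in the IL-3 and 61.2, 27.0 and 15.4 CPM in the TSLP libraries. Their log2 fold changes fell from 1.67 and 1.34 to 0.63 and 0.55. The neutrophil gene Ngp, which was not called with all libraries, was at 23.9, 17.5 and 20.7 CPM in the IL-3 and 154, 5.11 and 5.23 CPM in the TSLP libraries and was called lower without TSLP mature 1 (-2.08, edgeR adjusted p = 0.000843). In total 791 genes were called only without that library.

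**Figure D4:**
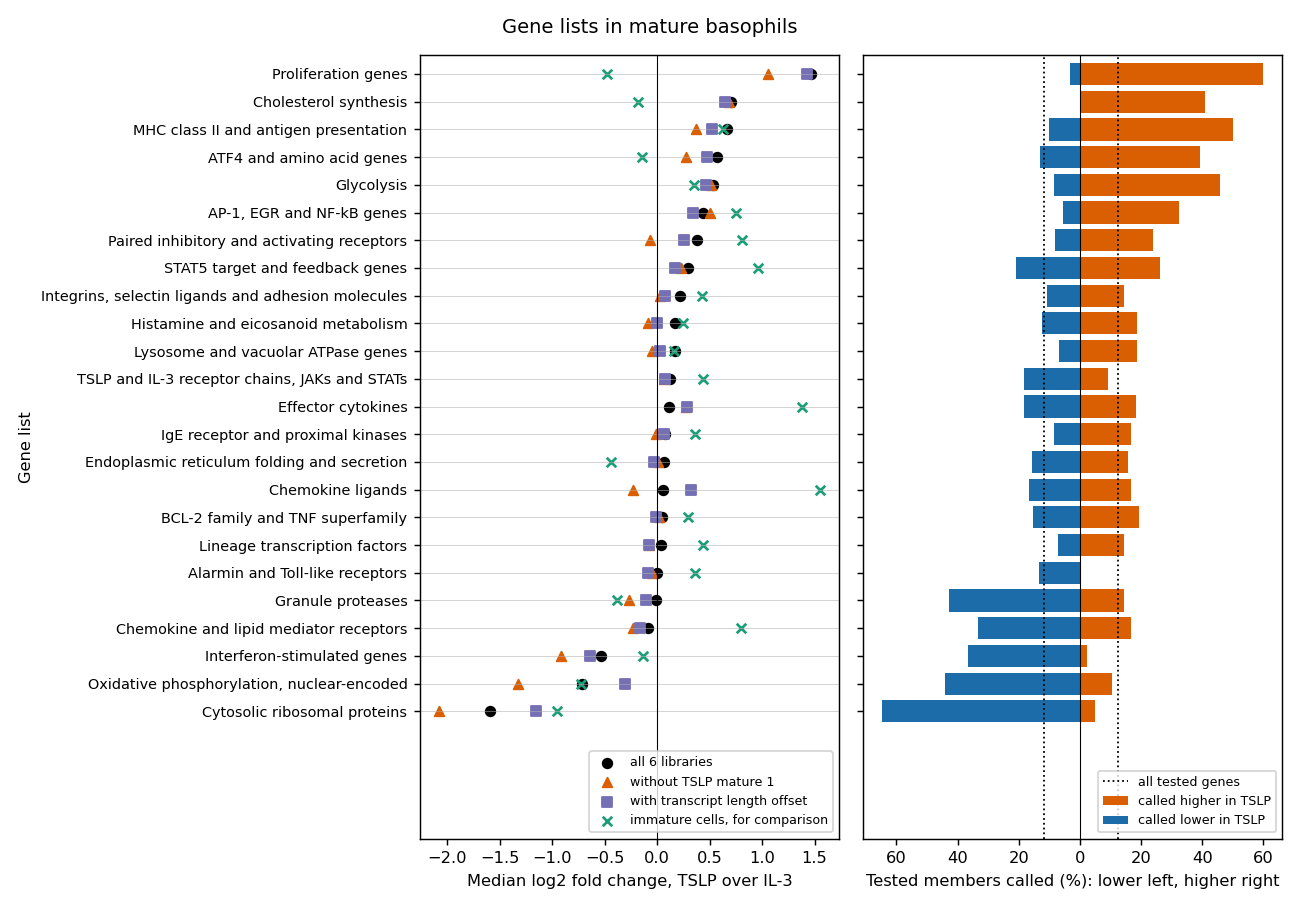
Left, the median log2 fold change of TSLP over IL-3 (x axis) for 24 gene lists (y axis) in mature cells with all 6 libraries, without TSLP mature 1 and with the length offset, and in immature cells. Right, the percentage of tested members called lower (to the left) and higher (to the right), with dotted lines at 11.9% and 12.4% of all tested genes. In mature cells proliferation genes have the highest and ribosomal protein genes the lowest median.

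Whether the TSLP over IL-3 fold change differed between mature and immature cells was tested by the difference between the stage-specific fold changes. Cells were sorted only after culture and no library lacked both cytokines. An effect of TSLP, an effect of IL-3 and what each culture let mature therefore cannot be told apart. It was called for 455 genes (4.19%), 222 (2.04%) with the higher TSLP over IL-3 value in mature and 233 (2.15%) with the lower. Of these 455 genes, 218 were called in mature cells only, 135 in immature cells only and 91 in both, 63 of them in opposite directions. Without TSLP mature 1 the count was 720, with 407 genes called in the same direction in both fits. Leaving out IL-3 mature 2 or 3, IL-3 immature 2, or TSLP immature 1 or 2 gave 248, 298, 280, 301 and 288 genes, respectively.

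Of 60 proliferation genes, 33 had a positive and 0 a negative stage difference, and in immature cells 16 of them were called lower and 0 higher with TSLP. Top2a was at 571, 537 and 511 CPM in IL-3-elicited and 347, 328 and 309 CPM in TSLP-elicited immature cells, lower with TSLP, against the rise in mature cells given above (stage difference 2.26 ± 0.26 on the log2 scale, edgeR adjusted p = 0.000143). Tfrc was at 50.5, 53.4 and 54.3 CPM in IL-3-elicited and 56.8, 53.1 and 58.6 CPM in TSLP-elicited immature cells, where it was not called (stage difference 2.47 ± 0.29 on the log2 scale, edgeR adjusted p = 0.000177). Lig1, DNA ligase I of replication, was at 0.712, 2.55 and 0.451 CPM in the IL-3 and 14.3, 7.66 and 5.85 CPM in the TSLP libraries in mature cells and 205, 148 and 148 CPM in IL-3-elicited and 68.9, 67.6 and 72.2 CPM in TSLP-elicited immature cells (stage difference 4.08 ± 0.54 on the log2 scale, edgeR adjusted p = 0.00042). Top2a and Lig1 thus fell with TSLP in immature cells and rose with it in mature cells. Stmn1 and Tmpo, a nuclear lamina protein, had stage differences of 3.47 and 2.07. Cholesterol synthesis genes gave 5 positive and 0 negative calls of 22, and the ATF4 list 5 and 0 of 23, with Psat1, Phgdh, Shmt2, Mthfd2 and the alanyl-tRNA synthetase gene Aars positive.

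In the other direction, the STAT5 list had 10 negative calls of 19 and the chemokine and lipid mediator receptors 8 of 18, with 0 and 0 positive. Kbtbd11, a BTB and Kelch domain protein, was at 24.9, 34.2 and 33.4 CPM in the IL-3 and 11.3, 8.80 and 9.23 CPM in the TSLP libraries in mature cells and 0.485, 0.571 and 0.331 CPM in IL-3-elicited and 14.7, 14.1 and 16.3 CPM in TSLP-elicited immature cells (stage difference -6.54 ± 0.43 on the log2 scale, edgeR adjusted p = 6.76e-07). Il7r was at 10.7, 9.14 and 4.64 CPM in IL-3-elicited and 38.2, 32.0 and 31.7 CPM in TSLP-elicited immature cells (stage difference -3.65 ± 0.31 on the log2 scale, edgeR adjusted p = 8.35e-06). Socs3 was at 5.34, 5.71 and 5.63 CPM in IL-3-elicited and 26.2, 36.3 and 36.1 CPM in TSLP-elicited immature cells (stage difference -3.29 ± 0.27 on the log2 scale, edgeR adjusted p = 4.49e-06). All 3 genes rose with TSLP in immature cells, with log2 fold changes of 4.89, 2.08 and 2.54, and fell with it in mature cells. Asb2, a ubiquitin ligase subunit, rose in both stages, at 99.4, 114 and 124 CPM in the IL-3 and 198, 196 and 193 CPM in the TSLP libraries in mature cells and 3.40, 2.29 and 3.31 CPM in IL-3-elicited and 70.4, 62.5 and 80.4 CPM in TSLP-elicited immature cells (stage difference -3.78 ± 0.29 on the log2 scale, edgeR adjusted p = 2.55e-06). The kinase gene Nek6 did likewise, with a stage difference of -3.63. Lif also rose in both stages, by 2.52 in mature and 6.61 in immature cells on the log2 scale. No granule protease, glycolysis, lysosome or oxidative phosphorylation gene was called for a stage difference, and of 82 ribosomal protein genes 1 was called positive and 0 negative. This does not show that their fold changes were equal between the stages.

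**Figure D5:**
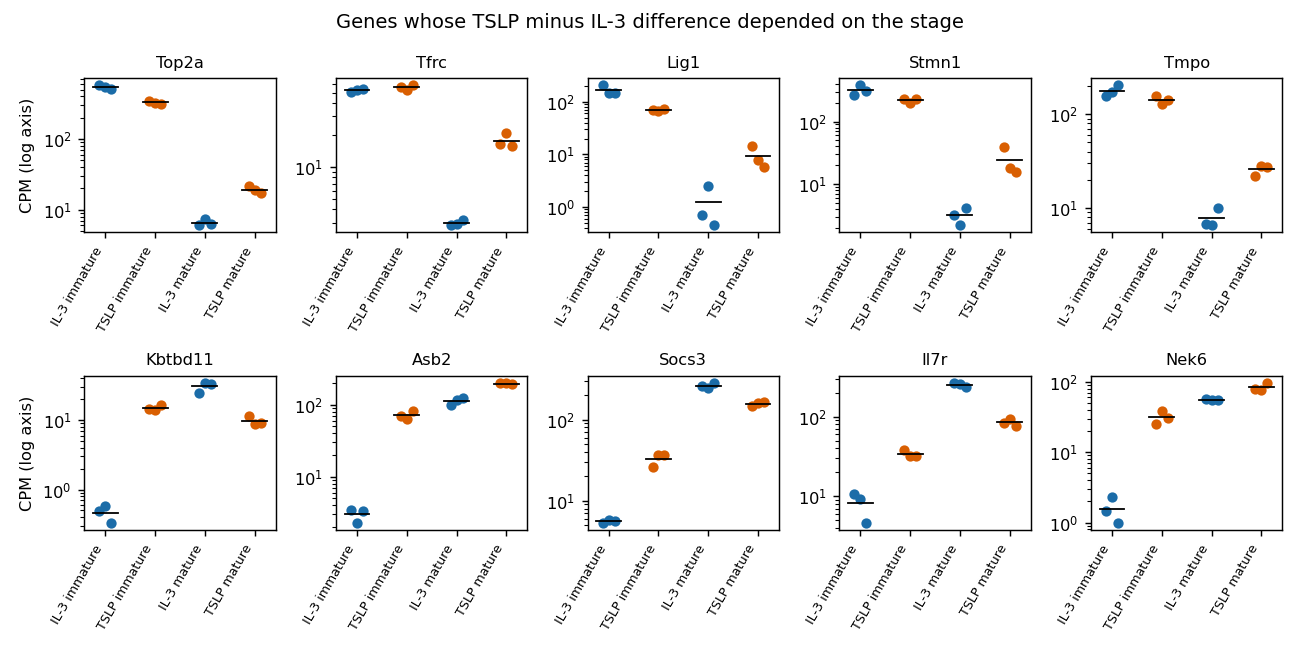
CPM (y axis, log scale) in each of the 12 libraries by stage and cytokine (x axis) for the 5 genes with the lowest adjusted p for the stage difference in each direction, with lines at the group means. Top2a, Lig1 and Stmn1 rise with TSLP in mature but not in immature cells, while Kbtbd11, Il7r and Socs3 fall with it in mature and rise in immature cells.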

How the data were processed

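RNA came from sorted cells, was captured on oligo(dT) beads, amplified across the whole transcriptome by PCR and read on an Ion Proton sequencer. By the study's methods, the authors trimmed reads with Cutadapt and mapped them to reference RNA of GRCm38 with Bowtie2, while the submitters' processing notes name mm10 and GRCm39. Handling of strand, multiply mapped reads and duplicates is not given in the sources used here. The deposited values are raw counts per gene for 12 libraries (31301 genes), with an unnamed row holding 50% of each column, which was left out. All 4 groups of 3 libraries entered 1 fit in edgeR 4.0.16 (R 4.3.3), with TMM scaling, filterByExpr (10861 genes tested), the quasi-likelihood test, contrasts within each stage and their difference, and Benjamini-Hochberg adjustment over all tested genes. The mature libraries held 2381782 to 3685285 counts, and the common biological coefficient of variation was 20.4%.

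The members and gene lists were chosen with earlier results of these data known. A first set of genes was named by rule. It held the 12 largest changes each way at a mean of at least 10 CPM that did not overlap and were called with and without TSLP mature 1. It also held up to 4 members of each list with the lowest adjusted p plus textbook members, and the 5 lowest adjusted p of the stage difference each way. Receptor and sorting genes, the 5 largest calls lost without TSLP mature 1 and the highest marker of each lineage in that library completed it. Further list members and markers, such as Irf1, Il6, Vegfa, S1pr1 and S100a9, were named outside this rule with the results known. Alternatives were DESeq2 1.42.0 (test and size factors), upper quartile scaling, TMM on uncalled genes, other filters, Rn45s left out, thinning to the smallest library, only the compared libraries, each library left out, a replicate block and, added after seeing the data, an offset for transcript length (GENCODE vM21; 94.5% of genes had a length). Gene positions are GENCODE vM21 on GRCm38, promoter sequences RefSeq on GRCm38.p6. The fit was tested on simulated data. Some genes that the rule names are not reported here.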

Additional observations from a re-analysis of the deposited data

Results flagged for a closer look

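The difference between the TSLP over IL-3 change in mature and in immature cells, tested in edgeR as an interaction of cytokine and stage, was called for 455 genes. By the lowest adjusted p at a mean of at least 10 CPM over the 12 libraries, the positive stage differences named here were 2.26 for Top2a, 2.47 for Tfrc, 4.08 for Lig1, 3.47 for Stmn1 and 2.07 for Tmpo on the log2 scale. The negative ones were -6.54 for Kbtbd11, -3.78 for Asb2, -3.29 for Socs3, -3.65 for Il7r and -3.63 for Nek6. No explanation of these differences was tested. No group held 4 or more libraries, so single libraries were not tested as outliers.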

How the results depend on the processing

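The 2634 genes called between TSLP- and IL-3-elicited mature cells became 1714 (704 higher, 1010 lower) with only the compared libraries and 1701 (679 higher, 1022 lower) after thinning to the smallest library, and ranged from 1663 (without IL-3 mature 2) to 2945 (without TSLP mature 1) on leaving out 1 library. They were 2853 with the replicate block. Upper quartile scaling gave 2837 genes, 60.9% of them higher against 51.1% in the reported fit, and a median log2 fold change over all genes of 0.17 against 0.09. The 1443 immature calls became 2327 with the length offset and TSLP mature 1 left out, ranged from 594 to 2225 on leaving out 1 library, and were 1893 with the replicate block. The 455 stage differences became 258 after thinning, 862 with the length offset and 815 with the offset and TSLP mature 1 left out, ranged from 248 to 720 on leaving out 1 library, and were 556 with the replicate block. The Rn45s difference of 3.09 percentage points ranged from 1.36 (without TSLP mature 3) to 5.74 (without TSLP mature 1) on leaving out 1 library. The cause of these shifts was not tested, beyond the smaller number of libraries or counts in the settings that remove some.

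Over 164 gene results and 3914 comparisons with an alternative, 3740 kept direction and side of the threshold, 160 lost the call, 9 gained it and 5 changed sign. The sign changes were Il4 (0.58 with the length offset, 0.72 with the offset and TSLP mature 1 left out), Ccl3 (0.60 and 0.74) and Rps3 (-0.43 with the offset and TSLP mature 1 left out), none of them called with all libraries. The replicate block changed the call of none of these 164 gene results, while 2584 of the 2634 genes called in mature cells were shared with it. Deviations of same-numbered mature libraries correlated at 0.39, 0.03 and 0.17, only number 1 above every other pairing. Between TSLP mature and TSLP immature libraries same numbers correlated at 0.16, 0.06 and 0.37, each above the other numbers (at most 0.14, 0.01 and -0.22). Between IL-3 mature and IL-3 immature libraries they correlated at 0.08, -0.08 and 0.07, only number 1 above the others. The labels give no shared source for a number. The reported stage difference took all libraries as independent, and a shared culture of mature and immature libraries was not tested. With 3 cultures per group, low genes such as Mthfd2 and Ifit3 rest on few counts per library. List medians of granule proteases, alarmin receptors, chemokine ligands, transcription factors and the BCL-2 and TNF list took the other sign in 4, 4, 5, 9 and 9 of 24 settings.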
